A study of Mus musculus with 21 samples.

Results

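Fibroblasts given PU.1, Irf8 and Batf3, called PIB after the factor set, were described as 1323 of the 25991 cells in the table, taken as all cells of the 2 libraries labelled PIB. Of these, 707 were collected on day 3 and 616 on day 9 after lentiviral transduction. They were mouse embryonic fibroblasts (MEFs) of the genotype Clec9aCre/Cre Rosa26stopflox-tdTomato/tdTomato, sorted live (DAPI-) and tdTomato+, so every PIB cell had already passed a reporter for Clec9a activity. Both Clec9a alleles carry Cre, so the Clec9a transcript is no check of that reporter. The other arms of the same reporter line carried Pu.1 with Irf8 (PI8), Pu.1 with Irf4 (PI4), PI4 with Prdm1 (PIP), Spib with Irf8 (SI8) or SI8 with Ikzf2 (SII), each with a day 3 and a day 9 library sorted the same way. The SI8 and SII sets also had day 3 and day 9 libraries labelled CD2, which are of another reporter line. Below, SI8 and SII mean the libraries of the Clec9a line. The references were wildtype MEFs (2045 and 1728 cells) that had no virus and were sorted as live only, and wildtype splenic type 1 conventional dendritic cells (cDC1), 814 cells sorted as CD11c+MHC-II+CD8alpha+. PIB cells therefore differ from MEF by genotype, virus and reporter sort together, which cannot be told apart. All cells were profiled with the 10x Chromium 3' assay, which counts transcripts as unique molecular identifiers (UMIs) read near the 3' end.

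PU.1 is the ETS-family transcription factor encoded by Spi1, and it is needed for myeloid and B cell development. IRF8 is an interferon regulatory factor that binds joint ETS-IRF elements together with PU.1. BATF3 is a basic leucine zipper factor that pairs with JUN proteins and IRF8, and it is required for cDC1 to develop. In the spleen, cDC1 take up dead cells and present their antigens to CD8 T cells, and they are known by Xcr1, the receptor for the chemokine XCL1, by Clec9a, a receptor for exposed actin, and by Cadm1, an adhesion molecule.

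The PIB libraries held 47373112 UMIs on day 3 and 38743525 on day 9, against 39630573 and 47984915 in MEF and 13208494 in cDC1. Median UMIs per cell were 67270 and 64579 in PIB, against 18100 and 25927.5 in MEF and 15938 in cDC1, so shares of cells are given after each cell was thinned to 5000 UMIs. The share of counts in Gm42418, AY036118 and Lars2, which marks RNA quality, was 0.284% and 0.431% in PIB, 0.286% to 3.66% in the 8 libraries of PI4, PIP, SI8 and SII, 0.0836% and 0.0764% in MEF and 0.880% in cDC1. The doublet caller Scrublet marked 13 and 7 PIB cells, and PIB libraries shared 0 to 2 cell barcodes with any other library. The library labelled PI8 day 9 stood apart, with 69.5% of its cells under 10000 UMIs, 0 counts of Batf3 and of Xcr1, and 47.0 counts per 1e6 UMIs (CPM) of Cd74 against 2646 CPM in PI8 on day 3. It was left out of the fits, and calls lost when it is put back are named beside the results or enter the counts given for their list.

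Transcripts of the delivered factors were examined before any other gene. Spi1 stood at 30.8 CPM on day 3 and 49.2 CPM on day 9 in PIB, against 0 in both MEF libraries. It was therefore at least 1142-fold higher in PIB than in MEF, with 3 counts over both MEF libraries as the floor (edgeR quasi-likelihood test, adjusted p = 0.00024). Irf8 stood at 33.0 and 43.1 CPM in PIB, against 1 count in MEF, a ratio of 3288 with a counting interval of 590 to 129919 (adjusted p = 0.00021). Batf3 stood at 5.003 and 2.32 CPM in PIB, against 0.807 and 0.834 CPM in MEF, and did not pass the test (2.21 ± 1.18 log2, adjusted p = 0.202).

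Spi1 and Irf8 were thus present in PIB and nearly absent from MEF, while the counts of Batf3 did not separate PIB from arms that were not given it. In the 8 libraries of PI4, PIP, SI8 and SII, Batf3 ran from 0.346 to 9.36 CPM, and in PI8 on day 3 it was 6.11 CPM. The contrast of PIB with the mean of those 4 arms gave 0.14 ± 0.51 log2 for Batf3 (adjusted p = 0.94). Whether the transcripts of the viruses end where these 3' counts are read was not tested. All 3 factors were below cDC1, which held 359 CPM of Spi1 (PIB lower by a log2 change of -3.17 ± 0.75, adjusted p = 0.00709), 1607 CPM of Irf8 (-5.40 ± 0.82, adjusted p = 0.000429) and 268 CPM of Batf3 (-6.16 ± 1.38, adjusted p = 0.00455).

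Xcr1, a defining gene of cDC1, was higher in PIB than in every other transduced library. It stood at 156 and 189 CPM in PIB, against at most 8.19 CPM in the 14 other transduced libraries, those labelled CD2 included. It was 1.74 CPM in PI8 on day 3 and 0.130 to 8.19 CPM in PI4, PIP, SI8 and SII. MEF held 2 counts of Xcr1, so the ratio of PIB to MEF was 7485, with a counting interval of 2072 to 61808 (adjusted p = 6.09e-05). In cDC1 Xcr1 was 424 CPM, and the PIB difference of -1.29 ± 0.69 log2 did not pass the test (adjusted p = 0.161).

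Serpinb1a, an inhibitor of neutrophil serine proteases, was the most abundant of the 3 genes that mark the PIB cells. It stood at 1628 and 1719.98 CPM in PIB, against 104 and 102 CPM in MEF, 15.3 CPM in cDC1 and 19.4 to 396 CPM in the 8 libraries of the other 4 arms. PIB lay above all of these libraries. PIB was higher than MEF by 4.06 ± 0.88 log2 (adjusted p = 0.0081) and than cDC1 by 6.78 ± 1.39 log2 (adjusted p = 0.00269), so this gene rose in PIB although splenic cDC1 nearly lack it. The call against MEF was lost without either MEF library (adjusted p of up to 0.0754). Against the other 4 arms Serpinb1a was higher by 3.81 ± 0.57 log2 (adjusted p = 0.00577), a call lost without either PIB library (adjusted p of up to 0.0667).

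Cd74, the invariant chain that escorts MHC class II proteins, stood at 930 and 1339 CPM in PIB, against 16.9 and 17.8 CPM in MEF and 19155 CPM in cDC1. It rose by 6.05 ± 1.22 log2 over MEF (adjusted p = 0.00578) and was lower than in cDC1 by a log2 change of -4.08 ± 1.20 (adjusted p = 0.0187). Unlike Xcr1, Cd74 overlapped the other arms, which held 174 to 1588 CPM, and PI8 on day 3 held 2646 CPM. The call against MEF was lost without either MEF library and with PI8 day 9. The call against cDC1 was lost without either PIB library and with PI8 day 9.

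**Figure D1:**
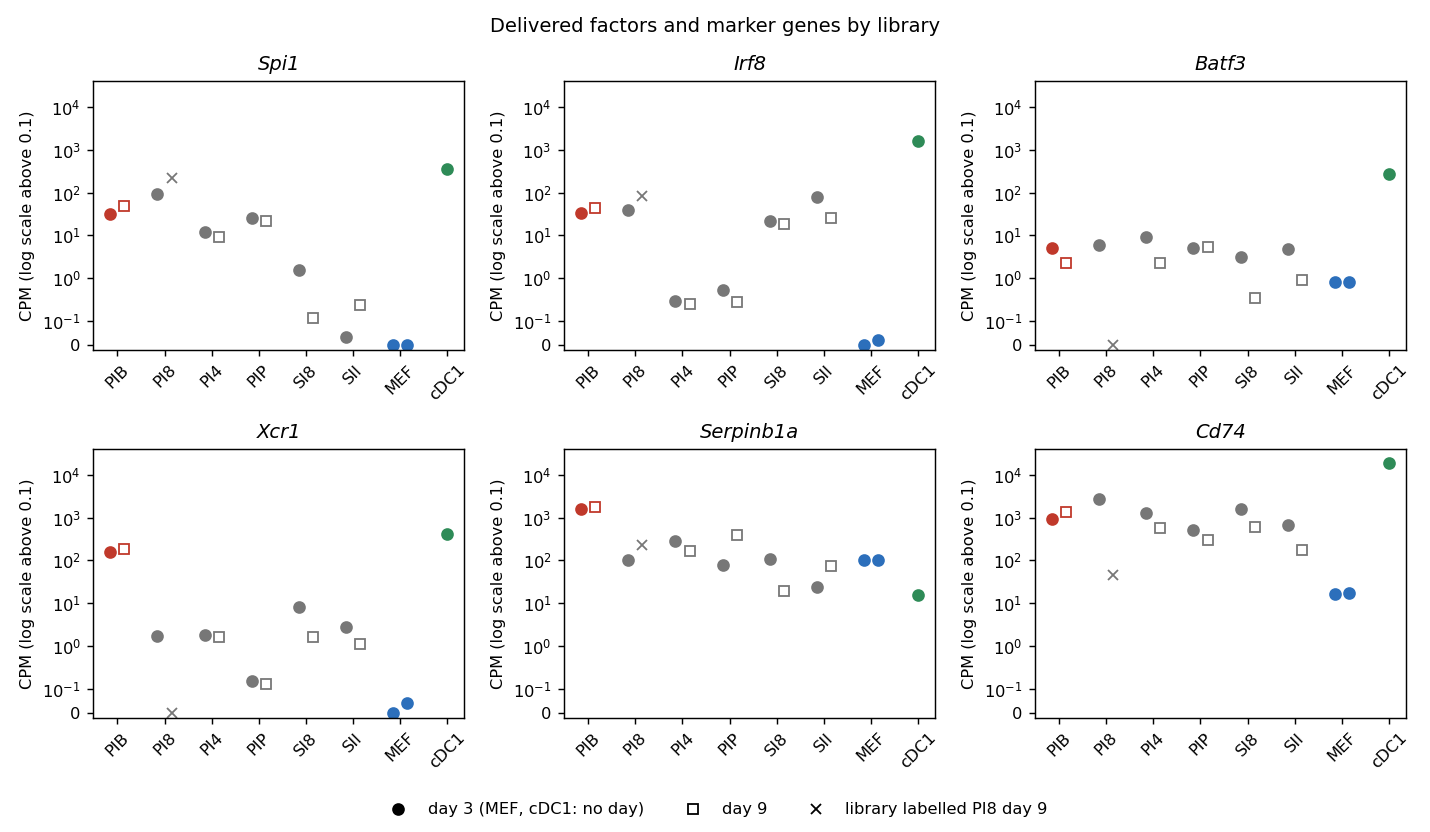
CPM of the delivered factors and of 3 marker genes in each library, with PIB in red at the left, the other factor sets of the Clec9a line in grey, MEF in blue and cDC1 in green. Each point is 1 library; the axis is linear below 0.1 CPM and logarithmic above, and Xcr1 shows PIB at 156 and 189 CPM above every other fibroblast library.

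The comparison with MEF asked which genes differed after the 3 factors. Most of the leukocyte and MHC class II genes examined and some chemokine genes were higher in PIB, and most genes of the extracellular matrix and of mesenchymal identity were lower, as were other chemokine genes. Of 18294 genes tested, 4096 were called at an adjusted p under 0.05, with 2244 higher and 1852 lower in PIB. As shares of the genes tested these are 22.4% in either direction, 12.3% higher and 10.1% lower. The count fell to 1306 and 1340 without MEF replicate 1 and 2, to 1933 and 2480 without PIB day 3 and day 9, and to 1340 with the library labelled PI8 day 9. Each value is a sum over the cells of a library, so more cells with a transcript and more transcript per cell cannot be told apart in these tests.

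The genes most raised over MEF were myeloid genes that had no counts in either MEF library. Clec12a, an inhibitory lectin of myeloid cells, stood at 227 and 333 CPM in PIB, at least 8025-fold over MEF (adjusted p = 1.41e-05). Arg1, which encodes arginase and competes for the substrate of nitric oxide synthase, stood at 104 and 158 CPM (at least 3751-fold, adjusted p = 6.09e-05). Il1b, an inflammatory cytokine, stood at 51.4 and 136 CPM (at least 2612-fold, adjusted p = 0.000903). All 3 were called again after leaving out any 1 PIB or MEF library.

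Others of this kind were surface receptors of leukocytes. Ccr2, a chemokine receptor of monocytes, was at least 2330-fold higher in PIB than in MEF, the scavenger receptor Cd36 at least 2320-fold, the inhibitory receptor Lilrb4a at least 2187-fold and Ms4a6d at least 1913-fold. March1, a ubiquitin ligase that turns over MHC class II, was at least 1757-fold higher and Aif1, an actin-binding protein of macrophages, at least 1530-fold. Cd36 lost its call without either MEF library (adjusted p of up to 0.0669), and Lilrb4a has a near-identical neighbour, so its counts are uncertain.

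Of 20 pan-haematopoietic genes, 16 rose and 1 fell against MEF. Their median log2 fold change was 7.06, or 5.46 with the 7 genes at 0 counts in MEF held at their bound, against 0 over all genes tested. Ptprc, the leukocyte phosphatase CD45, stood at 37.4 and 78.5 CPM in PIB and at 0 in MEF, at least 1632-fold higher (adjusted p = 0.000653). Coro1a, an actin regulator of leukocytes, stood at 118 and 45.7 CPM in PIB, against 2.30 and 2.17 CPM in MEF (5.26 ± 1.12 log2, adjusted p = 0.00738). The member that fell was Lsp1, an actin-binding protein that MEF themselves held at 283 and 268 CPM, against 8.06 and 4.90 CPM in PIB (-5.36 ± 0.86 log2, adjusted p = 0.00179). Leaving out either MEF library reduced the genes called higher to 8, and Coro1a was then lost. With PI8 day 9 they numbered 11.

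Of 18 cDC1 genes, 8 rose and 0 fell against MEF, with a median log2 fold change of 2.47 (2.65 with Wdfy4 at its bound and without the 3 genes at the floor in both groups). Besides Xcr1, Irf8 and Serpinb1a these were Cadm1, Id2, Naaa, Rab7b and Ppt1. Irf8 is a delivered factor, and Serpinb1a stood lower in cDC1, at 15.3 CPM, than in MEF, at 104 and 102 CPM. Cadm1 stood at 23.1 and 11.4 CPM in PIB, against 0.101 and 0.0834 CPM in MEF (7.56 ± 1.44 log2, adjusted p = 0.00432) and 232 CPM in cDC1. Id2, an inhibitor of helix-loop-helix factors that cDC1 need, stood at 103 and 110.3 CPM in PIB, against 9.71 and 9.82 CPM in MEF (3.47 ± 0.47 log2, adjusted p = 0.000738).

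Of the other genes of that list, several were near 0 in PIB. Zbtb46, a transcription factor of conventional dendritic cells, stood at 0.106 and 0.413 CPM in PIB, against 0.656 and 0.604 CPM in MEF and 73.8 CPM in cDC1. Wdfy4, which cDC1 need to present cell-borne antigen, stood at 0.106 and 0.0258 CPM in PIB, against 512 CPM in cDC1, and Cd8a had 1 count in PIB against 353 CPM in cDC1. Clec9a had 0 counts in both PIB libraries, against 336 CPM in cDC1, but the PIB line carries Cre at both Clec9a alleles and the cDC1 do not, so genotype and cell type cannot be told apart for this gene. Tlr3, a receptor for double-stranded RNA, was present in all of them, at 12.52 and 11.05 CPM in PIB, against 24.2 and 22.3 CPM in MEF (adjusted p = 0.154) and 186 CPM in cDC1. Without MEF replicate 2, 5 of the 18 genes were called higher than in MEF, with Cadm1 lost, and 4, with Id2, Naaa, Rab7b and Ppt1 lost, with the library labelled PI8 day 9.

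Genes of MHC class II presentation rose over MEF in 11 of 12 cases and fell in 1. Their median log2 fold change was 7.16 (6.33 with the genes at 0 in MEF at their bound). H2-Aa, which encodes an alpha chain, stood at 66.6 and 369.6 CPM in PIB, against 1 count in MEF, a ratio of 17780 with a counting interval of 3191 to 702319 (adjusted p = 0.00045). H2-Ab1, the partner beta chain, stood at 59.6 and 234 CPM in PIB, against 0.656 and 0.729 CPM in MEF (7.71 ± 0.70 log2, adjusted p = 8.91e-05). Ciita, the coactivator that switches on these genes, stood at 8.93 and 7.54 CPM in PIB, against 0 and 0.0417 CPM in MEF (adjusted p = 0.000538). Both chains were higher on day 9 than on day 3.

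H2-Aa, H2-Ab1 and Ciita were above both MEF libraries in both PIB libraries and far below cDC1, which held 6744 CPM of H2-Aa, 7497 CPM of H2-Ab1 and 386 CPM of Ciita. Ctss, the protease that trims the invariant chain, came closest, with 79.9 and 146 CPM in PIB and 361 CPM in cDC1 (adjusted p = 0.111). The costimulatory gene Cd86 rose to 14.3 and 8.49 CPM in PIB, against 0 in MEF, while Cd80 fell to 1.48 and 4.16 CPM, against 18.1 and 15.3 CPM in MEF (adjusted p = 0.0406). The fall of Cd80 was lost without any 1 of the 4 libraries. Genes of MHC class I presentation, which all nucleated cells use, differed from MEF in 1 of 15 cases, the proteasome subunit Psmb10 (192 and 172 CPM in PIB, against 62.4 and 61.4 CPM in MEF, adjusted p = 0.00603), a call lost without either MEF library.

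Chemokine and cytokine genes rose in 7 of 16 cases over MEF, and 0 fell (median log2 fold change 3.53). Cxcl16, a chemokine made by antigen-presenting cells, stood at 708 and 644 CPM in PIB, against 29.7 and 30.6 CPM in MEF (4.52 ± 0.30 log2, adjusted p = 2.62e-05). Ccl9, a chemokine that draws dendritic cells, stood at 138 and 247 CPM, against 11.03 and 9.503 CPM (4.24 ± 1.35 log2, adjusted p = 0.0433), a call lost without any 1 of the 4 libraries and with PI8 day 9. Ccl2, which draws monocytes, was already high in MEF and did not pass the test (3483 and 3438 CPM in PIB, 1665 and 1703 CPM in MEF, adjusted p = 0.289). The 7 calls fell to 3 without either MEF library and to 4 without PIB day 9, and Cxcl16 was lost with PI8 day 9.

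Of 18 macrophage and monocyte genes, 7 rose over MEF, among them Mpeg1, a pore-forming protein of phagocytes (126 and 105 CPM in PIB, against 9.69 and 9.09 CPM in MEF, adjusted p = 0.00121). Csf1r, the receptor for macrophage growth factor, stood at 7.41 and 10.3 CPM in PIB, against 0.454 and 0.479 CPM in MEF (adjusted p = 0.00602). Its call was lost with PI8 day 9. The summed level of the list was 331 and 1102 CPM in PIB, against 163 and 160 CPM in MEF, with Cd163 at 0 in PIB. Only Mpeg1 was called again without MEF replicate 1 or without MEF replicate 2, so the count of 7 became 1 in each of these fits, and it became 4 without PIB day 9 and 2 with PI8 day 9.

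Interferon response genes went the other way. Of 17 tested, 7 fell and 1 rose against MEF, with summed levels of 3820 and 3120 CPM in PIB against 6334 and 6270 CPM in MEF. Ifit3, which binds to other antiviral IFIT proteins, stood at 114 and 177 CPM in PIB, against 977 and 1005 CPM in MEF (-2.75 ± 0.47 log2, adjusted p = 0.00243). Ifit2 was the member that rose, with 263 and 515 CPM in PIB and 53.5 and 44.8 CPM in MEF (2.99 ± 0.61 log2, adjusted p = 0.00619), a call lost without either MEF library and with PI8 day 9. The 7 falling calls became 3 without MEF replicate 1, MEF replicate 2 or PIB day 3, and 1 without PIB day 9 or with PI8 day 9, where Ifit3 was lost.

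Matrix genes fell but did not disappear. Of 20 fibroblast and matrix genes, 15 fell and 0 rose against MEF, with a median log2 fold change of -3.16. Col3a1, a fibrillar collagen, stood at 63.5 and 63.0 CPM in PIB, against 6113 and 6057 CPM in MEF (-6.56 ± 0.93 log2, adjusted p = 0.000936). Col1a1, the main chain of type I collagen, stood at 295 and 148 CPM in PIB, against 5437 and 5409 CPM in MEF (-4.56 ± 0.43 log2, adjusted p = 0.00011). Its partner chain Col1a2 stood at 1673 and 1920.3 CPM in PIB, against 4701 and 4562 CPM in MEF, and did not pass the test (adjusted p = 0.175).

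The 2 chains of type I collagen thus differed in how far they stood from MEF. Fn1, which encodes fibronectin, stood at 896 and 1630.0 CPM in PIB, against 973 and 936 CPM in MEF (adjusted p = 0.604). Fbn1, which encodes the microfibril protein fibrillin, stood at 32.0 and 31.95 CPM in PIB, against 525 and 499.99 CPM in MEF (-3.97 ± 0.37 log2, adjusted p = 0.000112). The whole list summed to 5426 and 7067 CPM in PIB, against 31137 and 30643 CPM in MEF and 3.10 CPM in cDC1. Calls of lower members ranged from 11 to 12 when 1 PIB or MEF library was left out and were 5 with the library labelled PI8 day 9, where Col1a1 was among those lost.

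Mesenchymal transcription factors fell in 10 of 16 cases and rose in 2. Prrx2, a homeobox factor of limb mesenchyme, stood at 39.3 and 22.4 CPM in PIB, against 188 and 189 CPM in MEF (-2.56 ± 0.35 log2, adjusted p = 0.000803), and Runx1, a factor shared by blood and mesenchyme, at 41.5 and 72.2 CPM, against 235 and 219.6 CPM (-1.99 ± 0.35 log2, adjusted p = 0.00292). Twist2, a helix-loop-helix factor of mesenchyme, rose to 43.9 and 51.5 CPM, against 14.4 and 14.5 CPM (adjusted p = 0.0363), a call lost without any 1 of the 4 libraries and with PI8 day 9. The 10 falling calls became 6 without MEF replicate 1, MEF replicate 2 or PIB day 3, and 3, without Prrx2, with PI8 day 9. Of 12 contractile genes 2 rose, and none was called higher without MEF replicate 1, MEF replicate 2 or PIB day 3, or with PI8 day 9. Acta2, smooth muscle actin, stood at 650 and 435 CPM in PIB, against 81.9 and 85.2 CPM in MEF (2.74 ± 0.70 log2, adjusted p = 0.0174), a call lost in the same fits and with cells of at least 10000 UMIs (adjusted p of up to 0.311).

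Among the genes that fell most were an imprinted RNA and secreted proteins. The lowest by fitted change was Cxcl15, a chemokine, with 0.106 and 0 CPM in PIB, against 112 and 107 CPM in MEF (-10.79 ± 1.62 log2, adjusted p = 0.0021). H19, an imprinted noncoding RNA of embryonic tissue, stood at 4.01 and 1.14 CPM in PIB, against 1328 and 1178 CPM in MEF (-8.85 ± 1.74 log2, adjusted p = 0.00507). Sfrp2, a secreted regulator of WNT signals, stood at 0.296 and 0.542 CPM, against 225 and 218 CPM (-9.04 ± 0.73 log2, adjusted p = 5.51e-05), and Mfap4, a microfibril protein, at 0.802 and 5.29 CPM, against 664 and 675 CPM (-7.80 ± 1.38 log2, adjusted p = 0.00294). The 18 cell cycle genes summed to 139 and 86.0 CPM in PIB, against 106 CPM in each MEF library. Cdkn1a, a cell cycle inhibitor that responds to p53, stood at 1176 and 1986 CPM in PIB, against 644 and 625 CPM in MEF (adjusted p = 0.0351), a call lost without any 1 of the 4 libraries and with PI8 day 9.

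The comparison with cDC1 asked how far PIB cells were from splenic cDC1, a cell type with Clec9a transcript. Clec9a stood at 336 CPM in cDC1, 111 CPM in plasmacytoid dendritic cells and 9.08 CPM in type 2 conventional dendritic cells. Of 18294 genes, 7113 were called, with 4273 higher and 2840 lower in PIB. As shares of the genes tested these are 38.9% in either direction, 23.4% higher and 15.5% lower. Only 1 cDC1 library was measured, and the test assumes that it varies like the other groups.

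Genes of matrix and chemokines that have no counts in cDC1 led the higher side. Ccl8, a chemokine of inflamed tissue, stood at 1105 and 2823 CPM in PIB (at least 8268-fold over cDC1, adjusted p = 0.000908), Col1a2 was at least 7856-fold higher, Ccl7 at least 7269-fold and Cald1, an actin regulator of smooth muscle and fibroblasts, at least 5628-fold. Timp1, an inhibitor of matrix proteases, was at least 4555-fold, the proteoglycan gene Bgn at least 4422-fold, and Mgp, a calcification inhibitor, at least 4307-fold higher. Of 20 fibroblast and matrix genes, 18 were higher and 0 lower in PIB (median log2 fold change 13.75, or 8.07 with the 16 genes at 0 in cDC1 at their bound, against 0.26 over all genes tested). Of 16 mesenchymal transcription factors, 10 were higher and 0 lower, and of 17 interferon response genes 13 were higher and 1 lower. With PI8 day 9 in the fit, 7 of those interferon response genes were called higher.

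Genes lower than in cDC1 were led by those with no count in PIB. They were the aspartic protease gene Napsa (362 CPM in cDC1, so at least 10397-fold lower in PIB, adjusted p = 1.36e-05), Flt3, the cytokine receptor that drives dendritic cell development (at least 4768-fold), the inhibitory receptor Btla (at least 4644-fold), and H2-Oa, which restrains MHC class II loading (at least 4551-fold). The call of Flt3 was lost by DESeq2 and with PI8 day 9 (adjusted p of up to 0.108 over all alternatives). Clec9a also belongs here (at least 9645-fold lower in PIB), with the Cre alleles named above. Of 18 cDC1 genes, 13 were lower and 1, Serpinb1a, was higher in PIB, with a median log2 fold change of -4.68. Of 20 pan-haematopoietic genes, 17 were lower and 0 higher (median -6.25), and 9 of 12 MHC class II genes were lower and 0 higher (median -4.04). Cd52, a small surface glycoprotein of leukocytes, stood at 4.12 and 15.9 CPM in PIB, against 4391 CPM in cDC1 (-8.81 ± 0.83 log2, adjusted p = 1.75e-05).

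**Figure D2:**
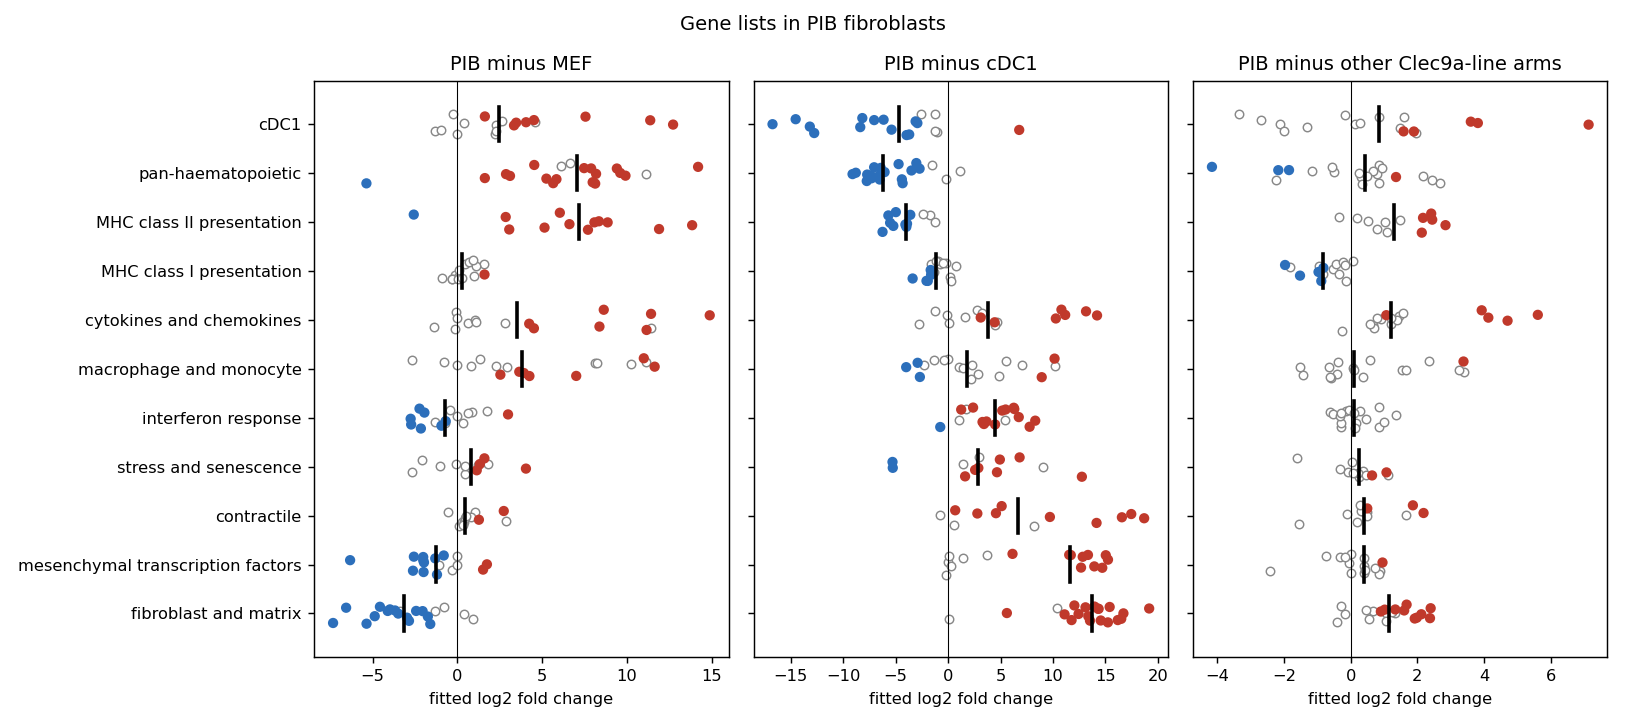
Fitted log2 fold changes of the genes of 11 lists in PIB against MEF (left), cDC1 (middle) and the mean of the other 4 arms of the Clec9a line (right). Each point is 1 gene, filled red where called higher and blue where called lower in PIB at an adjusted p under 0.05, open where not called, and the bar is the list's median; values of genes with no counts in a group depend on the fit and are not bounds. Of 20 fibroblast and matrix genes, 15 were lower than in MEF and 18 higher than in cDC1.

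PIB cells were next placed between the reference types with genes chosen without them. MEF-high genes were the 555 genes at least 8-fold higher in MEF than in cDC1, and cDC1-high genes the 326 genes for which the reverse held, each with at least 50 CPM in the higher type. MEF-high genes took 10.8% and 12.1% of UMIs in PIB, against 19.4% and 19.2% in MEF and 0.290% in cDC1. The cDC1-high genes took 4.32% and 4.18% in PIB, against 0.532% and 0.519% in MEF and 16.8% in cDC1. On both measures both PIB libraries lay between MEF and cDC1. The sets were chosen to differ between MEF and cDC1, and no other arm was placed on them, so this position is not shown to be particular to PIB.

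Single cells were spread more widely. The median PIB cell had 10.6% of its UMIs in MEF-high genes on day 3 and 11.7% on day 9, against 19.3% and 19.2% in MEF and 0.26% in cDC1. It had 4.12% and 3.74% in cDC1-high genes, against 0.50% in either MEF library and 17.1% in cDC1. In cDC1-high genes, 99.7% and 98.0% of PIB cells exceeded 1.2%, the 99th percentile of MEF cells, and 0 exceeded the cDC1 median. In cDC1-high genes the lowest cDC1 cell held 2.48%, and 593 of 706 and 466 of 612 PIB cells reached it. The highest MEF cell was exceeded by 6 and 19 PIB cells, so the full ranges overlapped. The 5th percentile of cDC1 cells was 13.48%. The highest PIB cell held 13.18% on day 3, and on day 9 the 95th percentile was 8.9% and the highest cell 15.24%. In MEF-high genes 0 PIB cells lay within the cDC1 range, 34 and 33 lay below the lowest MEF cell, and 97.9% and 86.3% lay below 15.1%, the 5th percentile of MEF.

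A few genes held most of the cDC1-high share. Tmsb4x, a regulator of free actin, Cst3, a protease inhibitor abundant in dendritic cells, and the RNA quality gene Gm42418 held 73.5% of the cDC1-high UMIs of PIB. Tmsb4x alone stood at 24553 and 16233 CPM in PIB, against 810 and 773 CPM in MEF and 29780 CPM in cDC1, and Cst3 at 5667 and 9444 CPM in PIB, against 2008 and 2002 CPM in MEF and 21777 CPM in cDC1. Without these 3 genes, an alternative added after seeing the data, the median PIB cell held 0.98% and 0.99% in the other 323 genes, against 0.18% in either MEF library and 11.2% in cDC1. Then 98.0% and 97.1% of PIB cells exceeded the 99th percentile of MEF, and 0 exceeded 8.48%, the 5th percentile of cDC1.

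**Figure D3:**
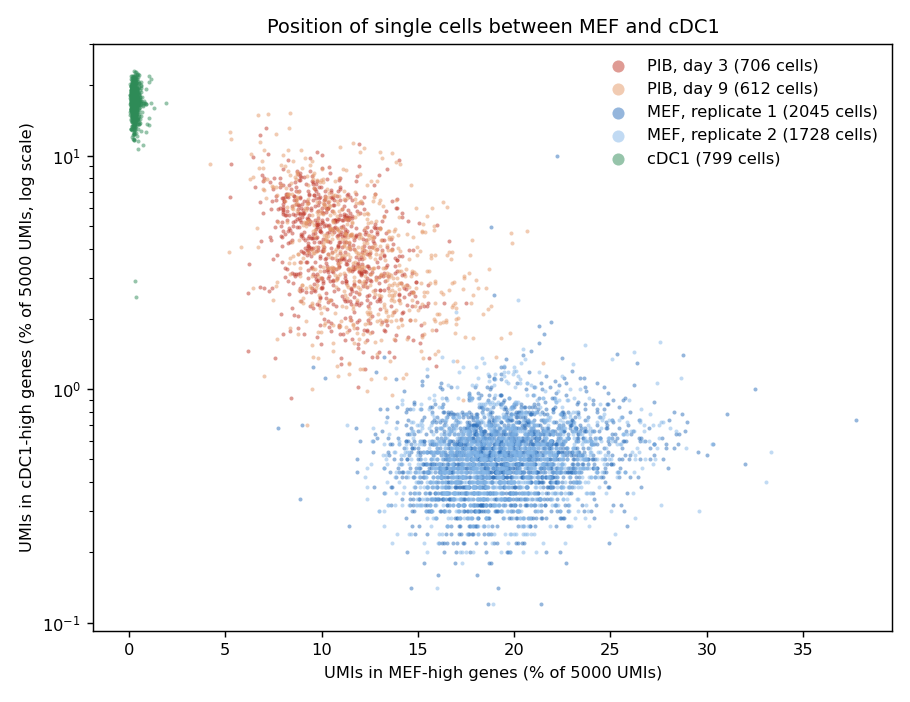
Share of UMIs in MEF-high genes (x axis) and in cDC1-high genes (y axis, log scale) in single cells thinned to 5000 UMIs, for 706 and 612 PIB cells of day 3 and day 9 in red and orange, 2045 and 1728 MEF in blue and 799 cDC1 in green. The PIB medians lie between those of the other types on both axes, with medians of 10.6% and 11.7% on the x axis against 19.3% and 19.2% in MEF and 0.26% in cDC1. Single PIB cells overlap MEF cells on both axes and cDC1 cells on the y axis alone.

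Gene by gene, PIB reached the cDC1 level for few of the cDC1-high genes. The mean of the PIB libraries was at or above the cDC1 level for 5 of the 326 genes, at or above 50% of it for 28, from 10% to 50% for 92, from 1% to 10% for 127 and under 1% for 79, of which 12 had no counts in PIB. The 5 were Cystm1, Lyz2, Clec12a, Pde4b and AW112010. Lyz2, the lysozyme of macrophages and neutrophils, stood at 90.9 and 734 CPM in PIB and 201 CPM in cDC1, and Pde4b, a phosphodiesterase, at 43.0 and 86.5 CPM in PIB and 51.1 CPM in cDC1. Ucp2, a mitochondrial carrier of immune cells, stood at 685 and 409 CPM in PIB, against 1.56 and 1.15 CPM in MEF and 775 CPM in cDC1.

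MEF-high genes were retained more widely, with a median of 45.9% of the MEF level against 5.88% of the cDC1 level for cDC1-high genes. For 116 of the 555, PIB stood at or above the MEF level. Ctsk, a collagen-degrading protease, stood at 693 and 805 CPM in PIB, against a mean of 97.0 CPM in MEF, and S100a4, a calcium-binding protein of motile mesenchymal cells, at 2526 and 739 CPM, against a mean of 280 CPM. Spp1, which encodes osteopontin, stood at 546 and 1038 CPM in PIB, against a mean of 7406 CPM in MEF, and Cxcl5, a neutrophil chemokine, at 189 and 74.6 CPM, against a mean of 7510 CPM.

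UMIs of fibroblast and of leukocyte genes were counted in the same PIB barcodes. After thinning to 5000 UMIs, at least 3 UMIs of the fibroblast and matrix list and at least 3 of the pan-haematopoietic list occurred together in 84.8% of PIB cells on day 3 (exact 95% interval 82.0 to 87.4) and in 60.1% on day 9 (56.1 to 64.0). The same held for 40.6% and 39.3% of MEF cells and 0 of 799 cDC1 cells. Lsp1 and Arhgdib of the pan-haematopoietic list each stood above 200 CPM in MEF. Without these genes, an alternative added after seeing the data, 24.5% (21.4 to 27.9) and 17.3% (14.4 to 20.6) of PIB cells held both lists, against 0 of 2045 and 0 of 1728 MEF cells, which allows shares of up to 0.147% and 0.174% by counting error alone. In the day 9 library, 4 cells described below held 59.9 to 163 CPM of the fibroblast and matrix list, against a median of 6303 CPM. No cell type known to lack the leukocyte transcripts was present in the PIB libraries, and the part of free RNA in the PIB shares was not tested.

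Pairs of genes differed in how often they shared a cell. At 10000 UMIs, Xcr1 had a UMI in 74.9% of day 3 PIB cells with Ptprc and in 45.4% of those without, and in 66.4% and 36.7% on day 9. Irf8 had a UMI in 39.2% of day 3 PIB cells with Spi1 and 26.4% of those without, and in 42.0% and 28.2% on day 9. Xcr1 had a UMI in 53.6% of day 3 PIB cells with Spi1 and 51.9% of those without, and in 49.4% and 41.9% on day 9. By Spi1, H2-Aa had a UMI in 20.6% and 19.2% on day 3, and in 29.0% and 26.6% on day 9. By Irf8, Xcr1 had a UMI in 55.9% and 50.8% on day 3, and in 55.2% and 38.8% on day 9. By Xcr1, Cd74 had a UMI in 82.9% and 73.8% on day 3, and in 61.9% and 39.6% on day 9. Ptprc was less frequent beside the collagen gene Col1a1, with a UMI in 21.9% of day 3 PIB cells with Col1a1 and 31.3% of those without, and in 19.4% and 31.8% on day 9. These cells share their library and differ in depth before thinning, so the shares are descriptions with no test.

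4 PIB cells of day 9 stood outside the common pattern. They held 59.9 to 163 CPM of the fibroblast and matrix list, where the next lowest PIB cell held 674 CPM, and 25652 to 52929 CPM of the macrophage and monocyte list. They had 13 to 33 UMIs of Spi1, 1 to 9 of Irf8 and 0 to 5 of Xcr1. They had none of Batf3, which does not set them apart. They held 30680 to 50116 UMIs each, and Batf3 stood at 2.32 CPM in the whole day 9 library. They held 98.9% of all Tyrobp UMIs of PIB, 98.0% of those of C1qa and 65.6% of those of Fcer1g. Tyrobp and Fcer1g are signalling adaptors of myeloid receptors, and C1qa is a complement gene of macrophages.

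Without these 4 cells, Tyrobp stood at 0.155 CPM on day 9, against 14.3 CPM with them, C1qa stood at 0.259 CPM against 14.4 CPM, and Cd52 at 7.96 CPM against 15.9 CPM. Ptprc stood at 77.8 CPM without them and 78.5 CPM with them, and Xcr1 at 189.9 and 189.2 CPM. The counts of genes called without them were 4071 against MEF, 7115 against cDC1 and 1093 against the other arms. Pan-haematopoietic genes called higher than in MEF then numbered 14, with Rac2 and Cytip lost, and macrophage and monocyte genes 6, with Fcgr1 lost.

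The comparison with the other arms of the same reporter line asked how PIB differed from fibroblasts that were transduced and sorted in the same way with other factors. PIB was set against the mean of PI4, PIP, SI8 and SII, with day as a covariate. Of 16847 genes tested, 1086 were called, with 807 higher and 279 lower in PIB. As shares of the genes tested these are 6.45% in either direction, 4.79% higher and 1.66% lower. The count was 225 without PIB day 3, 275 without PIB day 9, 680 without SI8 day 9 and 112 with the library labelled PI8 day 9. By DESeq2 it was 1939, with 60.4% of calls higher, against 74.3% by edgeR.

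Genes raised over the mean of PI4, PIP, SI8 and SII spanned surface receptors, chemokines and enzymes. PI8, which differs from PIB by the absence of Batf3, is not in that mean. Apart from Xcr1, the genes chosen here as raised or lowered were not set beside PI8. Whether their differences are particular to the set with Batf3 was therefore not tested. Xcr1 was higher by 7.13 ± 0.37 log2 (adjusted p = 4.17e-05; the largest adjusted p with 1 library left out was 0.00121). Arg1 stood at 104 and 158 CPM in PIB, against 0.579 to 23.9 CPM in the other 8 libraries (4.999 ± 0.27 log2, adjusted p = 4.17e-05), and Ccl6, a chemokine of myeloid cells, at 43.7 and 247 CPM, against 0.179 to 16.4 CPM (5.61 ± 0.63 log2, adjusted p = 0.00178). These genes were chosen among called genes with both PIB libraries above all 8 others, so that separation is no further evidence.

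Genes with other roles were raised as well. Ifitm1, an interferon-inducible membrane protein, stood at 125 and 308 CPM in PIB, against 0.686 to 37.5 CPM (4.46 ± 0.47 log2, adjusted p = 0.00147). Spink12, a predicted serine protease inhibitor, stood at 154 CPM on day 3 and 7.25 CPM on day 9, against at most 0.358 CPM (10.31 ± 0.79 log2, adjusted p = 0.000613), and Myom2, a protein of the muscle M-band, at 6.52 and 42.4 CPM, against at most 0.127 CPM (9.45 ± 0.55 log2, adjusted p = 0.000189). Nrk, a kinase of embryonic and placental tissue, Mfap5, a microfibril protein, and Fibin, a secreted factor of the developing fin in fish, were chosen by the same rule. Trbc2, a constant region of the T cell receptor beta chain, stood at 18.7 and 47.0 CPM in PIB, against 0 to 8.18 CPM (4.91 ± 0.38 log2, adjusted p = 0.000624), with Cd3e, Cd3d and Cd3g at 0 in PIB.

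Xcr1, Arg1, Ccl6, Ifitm1, Spink12, Myom2, Nrk, Mfap5, Fibin and Trbc2 were called in all fits with 1 library left out. Nos2, the inducible nitric oxide synthase (81.3 and 118 CPM in PIB, against 0 to 43.2 CPM, adjusted p = 0.00362), and Tnfsf13b, the B cell survival factor BAFF (52.1 and 18.3 CPM in PIB, against 0.0526 to 4.20 CPM, adjusted p = 0.00238), lost their calls without PIB day 3, with adjusted p of 0.0706 and 0.0544. With PI8 day 9 in the fit, Nos2, Mfap5 and Fibin were lost too.

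The genes chosen for lying below all 8 libraries included Cd209a and Pld4, known from other dendritic cells, but the lists of those cells had no common direction. Of 9 genes of type 2 conventional dendritic cells (cDC2) tested, 2 were lower in PIB, 1 was higher and 6 were not called. The lower genes were Cd209a and Irf4, a factor delivered to PI4 and PIP, and the higher gene was Clec12a. Of 11 plasmacytoid dendritic cell genes tested, 0 were called. Cd209a, a lectin of monocyte-derived cells and cDC2, stood at 0 and 0.336 CPM in PIB, against 5.46 to 426 CPM in the other arms (-7.83 ± 0.85 log2, adjusted p = 0.00162). Pld4, an endolysosomal nuclease abundant in plasmacytoid dendritic cells, stood at 7.94 and 6.66 CPM in PIB, against 19.3 to 415 CPM (-3.45 ± 0.42 log2, adjusted p = 0.00232), and Hpgd, which breaks down prostaglandins, at 4.79 and 6.74 CPM, against 15.4 to 189 CPM (-3.59 ± 0.30 log2, adjusted p = 0.000613). BC035044 had 3 counts in PIB, against 2.25 to 109 CPM in the other arms, a ratio of 0.000907 with a counting interval of 0.000187 to 0.00265 (adjusted p = 0.00159). All 4 were called with any 1 library left out. Cfp and Mt3 were lost without either PIB library. With PI8 day 9 in the fit Cd209a, Pld4, Hpgd, Cfp, Mt3 and Cd24a were all lost. Cd24a was also lost without any 1 of 5 libraries, namely PIB day 3, PIB day 9, PI4 day 3, PI4 day 9 and SI8 day 9.

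**Figure D4:**
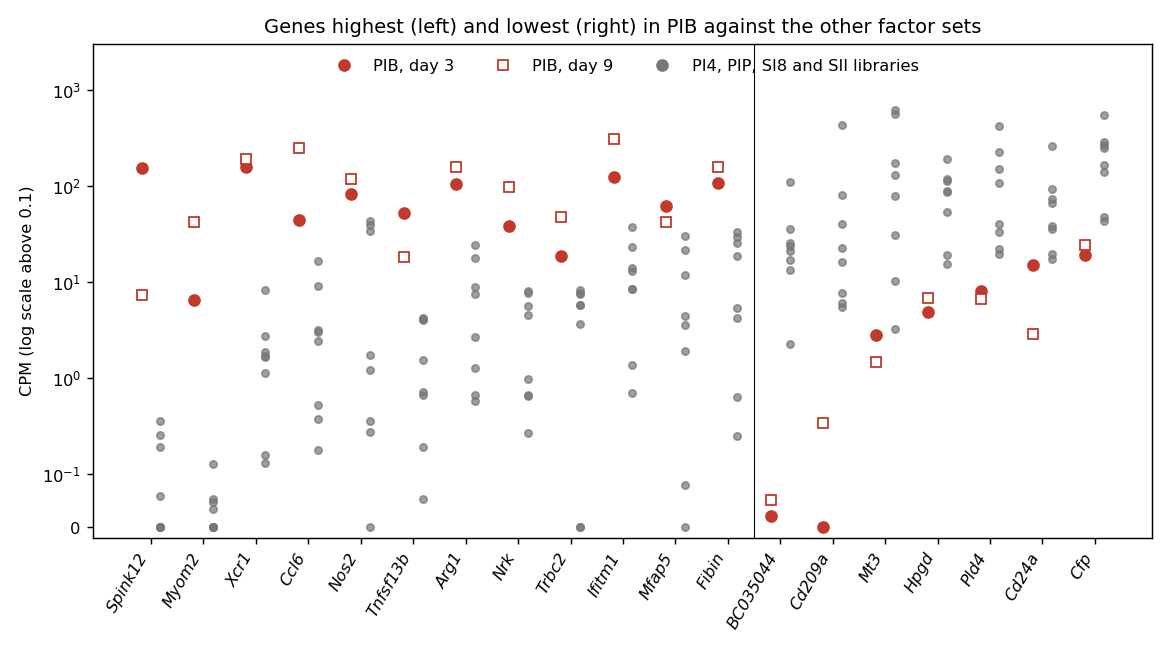
CPM of the 12 genes highest and of 7 of the genes lowest in PIB against the other factor sets, chosen for this difference, with PIB day 3 (filled red) and day 9 (open red) left of the 8 libraries of PI4, PIP, SI8 and SII (grey). The axis is linear below 0.1 CPM and logarithmic above; Xcr1 stands at 156 and 189 CPM in PIB, against 0.130 to 8.19 CPM.

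The promoters of the raised genes are shown because PU.1, IRF8 and BATF3 bind known short DNA elements and these genes were higher in PIB than in the other arms. RefSeq windows of 250 bases before to 50 after each start (build GRCm38.p6) were at hand for 6 of the 12 raised genes, with 7 windows in all. Each is given 5′ to 3′ on the strand of its gene, with matches to a searched motif in capitals. Xcr1 lies at chr9:123861980-123862279, minus strand, Ccl6 at chr11:83593038-83593337, minus strand, Ifitm1 at chr7:140967826-140968125, plus strand, and the second of the Tnfsf13b windows at chr8:10006383-10006682, plus strand.
Xcr1: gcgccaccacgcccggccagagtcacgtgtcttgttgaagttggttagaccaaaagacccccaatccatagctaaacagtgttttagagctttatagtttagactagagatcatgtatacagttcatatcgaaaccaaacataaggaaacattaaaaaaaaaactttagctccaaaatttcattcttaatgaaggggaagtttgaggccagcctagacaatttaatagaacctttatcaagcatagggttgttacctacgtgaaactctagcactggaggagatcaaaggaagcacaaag
Ccl6: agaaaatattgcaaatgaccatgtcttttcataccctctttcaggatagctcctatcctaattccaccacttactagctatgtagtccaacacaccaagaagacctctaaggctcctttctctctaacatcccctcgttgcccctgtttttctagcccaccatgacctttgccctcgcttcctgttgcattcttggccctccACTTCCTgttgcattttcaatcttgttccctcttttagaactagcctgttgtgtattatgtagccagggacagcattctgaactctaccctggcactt
Ifitm1: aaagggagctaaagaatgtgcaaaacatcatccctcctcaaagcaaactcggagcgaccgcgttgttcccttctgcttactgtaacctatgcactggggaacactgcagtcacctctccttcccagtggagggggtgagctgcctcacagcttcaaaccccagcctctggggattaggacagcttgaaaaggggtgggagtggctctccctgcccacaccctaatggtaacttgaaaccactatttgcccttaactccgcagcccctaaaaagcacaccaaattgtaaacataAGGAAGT
Tnfsf13b: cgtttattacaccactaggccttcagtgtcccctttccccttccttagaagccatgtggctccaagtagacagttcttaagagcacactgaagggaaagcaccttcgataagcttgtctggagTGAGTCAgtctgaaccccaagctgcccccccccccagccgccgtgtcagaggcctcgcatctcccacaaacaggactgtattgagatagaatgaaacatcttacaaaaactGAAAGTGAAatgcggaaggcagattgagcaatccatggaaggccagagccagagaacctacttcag

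The motifs searched on both strands were an ETS site (AGGAAGT), an ETS-IRF element (GGAANNGAA), an IRF repeat (GAAANNGAA) and an AP-1 site (TGANTCA). The Xcr1 window held none of the 4. Ccl6 held 1 ETS site, which reads as its reverse complement in the line above, Ifitm1 held 1 ETS site at the end of its window, and the Tnfsf13b window held 1 AP-1 site and 1 IRF repeat. Among the 7 windows of raised genes, 2 held an ETS site, 0 an ETS-IRF element, 1 an IRF repeat and 2 an AP-1 site, the last 2 being overlapping windows of Tnfsf13b. Among 6 windows of lowered genes, 2 held an ETS site, 3 an ETS-IRF element, 0 an IRF repeat and 0 an AP-1 site. Among 32851 promoters in all, 9.35% held the ETS site, 8.24% the ETS-IRF element, 8.56% the IRF repeat and 7.81% the AP-1 site. A match describes the letters in this window and is no evidence of binding.

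By list, PIB differed from the mean of the other arms in several groups. Of 17 cDC1 genes tested, 5 were higher and 0 lower: Xcr1, Irf8, Serpinb1a, Naaa and Tlr3, with a median log2 difference of 0.86. Irf8 is a delivered factor of PIB, given to SI8 and SII as well but not to PI4 and PIP. Serpinb1a stood at 15.3 CPM in cDC1, against 1628 and 1719.98 CPM in PIB. Of 12 MHC class II genes, 5 were higher and 0 lower, among them H2-DMb1, which helps load peptides (35.7 and 67.2 CPM in PIB, against 2.71 to 50.9 CPM, 2.17 ± 0.25 log2, adjusted p = 0.00178). The summed MHC class II list was 1284 and 2573 CPM in PIB and 248 to 2082 CPM in the other arms, so the totals overlapped. H2-Aa overlapped too, at 66.6 and 370 CPM in PIB, against 1.10 to 92.7 CPM. Of 15 MHC class I genes, 5 were lower and 0 higher, among them H2-T23 (118 and 126 CPM in PIB, against 115 to 374 CPM, -0.96 ± 0.13 log2, adjusted p = 0.00354), a call lost without either PIB library and with PI8 day 9. The cDC1 count became 2 without PIB day 3 and 3 without PIB day 9, the MHC class II count 1 without PIB day 9 and 3 without PI4 day 3, PI4 day 9 or PIP day 9, and the MHC class I count ranged from 0 to 8 with 1 library left out. With PI8 day 9 in the fit, the cDC1 count was 3, without Naaa and Tlr3, the MHC class II count 1, with H2-DMb1, and the MHC class I count 0.

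Matrix genes were higher in PIB than in the other arms, where 10 of 20 were called higher and 0 lower. Col1a2 stood at 1673 and 1920.3 CPM in PIB, against 186 to 747 CPM in the other arms (2.40 ± 0.35 log2, adjusted p = 0.00536), and Fbn1 at 32.0 and 31.95 CPM, against 3.77 to 17.5 CPM (1.98 ± 0.26 log2, adjusted p = 0.00301). Col1a2 lost its call without PIB day 9 and Fbn1 without PIB day 3. The summed list was 5426 and 7067 CPM in PIB and 1557 to 7138 CPM in the other arms, so the totals overlapped. The count became 2 without PIB day 3, 4 without PIB day 9, 6 without PI4 day 3 or SI8 day 9, and 0 with PI8 day 9. Pan-haematopoietic genes were lower in 3 of 20 cases and higher in 1 (1 and 0 with PI8 day 9), and Cd52 stood at 4.12 and 15.9 CPM in PIB, against 9.74 to 1073 CPM (-4.15 ± 0.61 log2, adjusted p = 0.00524).

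PI8, which differs from PIB by the absence of Batf3, had 1 usable library, of day 3, so its values are set beside PIB day 3 with no test. Xcr1 stood at 156 CPM in PIB and 1.74 CPM in PI8, and Serpinb1a at 1628 CPM in PIB and 104.5 CPM in PI8. Cd74 was lower in PIB, at 930 CPM against 2646 CPM in PI8, and the MHC class II list summed to 1284 CPM in PIB and 4088 CPM in PI8. The macrophage and monocyte list summed to 331 CPM in PIB and 1270 CPM in PI8, and the fibroblast and matrix list to 5426 CPM in PIB and 2602 CPM in PI8. Spi1 itself stood at 30.8 CPM in PIB and 93.4 CPM in PI8.

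The PIB cells fell into 6 clusters, and their make-up followed the day of collection. Clusters 1, 2 and 3 held 285, 167 and 246 day 3 cells with 12, 37 and 15 day 9 cells. Clusters 4, 5 and 6 held 114, 127 and 311 day 9 cells with 6, 2 and 1 day 3 cells. A cluster that is mostly 1 library may be that library rather than a state, so the clusters are numbered and not named. Median UMIs per cell ran from 63572 to 72052 over the clusters.

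Every cluster kept both kinds of transcript. The fibroblast and matrix list summed to 4291 to 8001 CPM in the 6 clusters, and Xcr1 stood at 81.0 to 276 CPM. Cluster 1 was led by Tac1, Rpl39l and Eno3, cluster 2 by Ppbp, Cxcl5 and Ptx3, and cluster 3 by Spink12 and P2ry14. Cluster 3 held 276 CPM of Xcr1 and 2752 CPM of Serpinb1a, more of each than any other cluster, and the least fibroblast and matrix transcript.

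The day 9 clusters differed in immune genes. Cluster 4 was led, without the 4 cells above, by the chemokine Cxcl13 (686 CPM) and Lyz2 (2153 CPM), and it held 223 CPM of Ptprc, against 11.1 to 58.9 CPM in clusters other than 4. Its macrophage and monocyte list summed to 2828 CPM without those cells, against 189.7 to 639 CPM in the other clusters, and its fibroblast and matrix list to 6035 CPM. Cluster 5 was led by Tnf, Cxcl2 and Gbp5 and held 5569 CPM of Ccl5, with an MHC class II sum of 5364 CPM, against 670 to 2844 CPM in the other clusters. Cluster 6, which held 50.5% of day 9 cells, was led by Tnfsf18, Ctla2a and Penk.

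**Figure D5:**
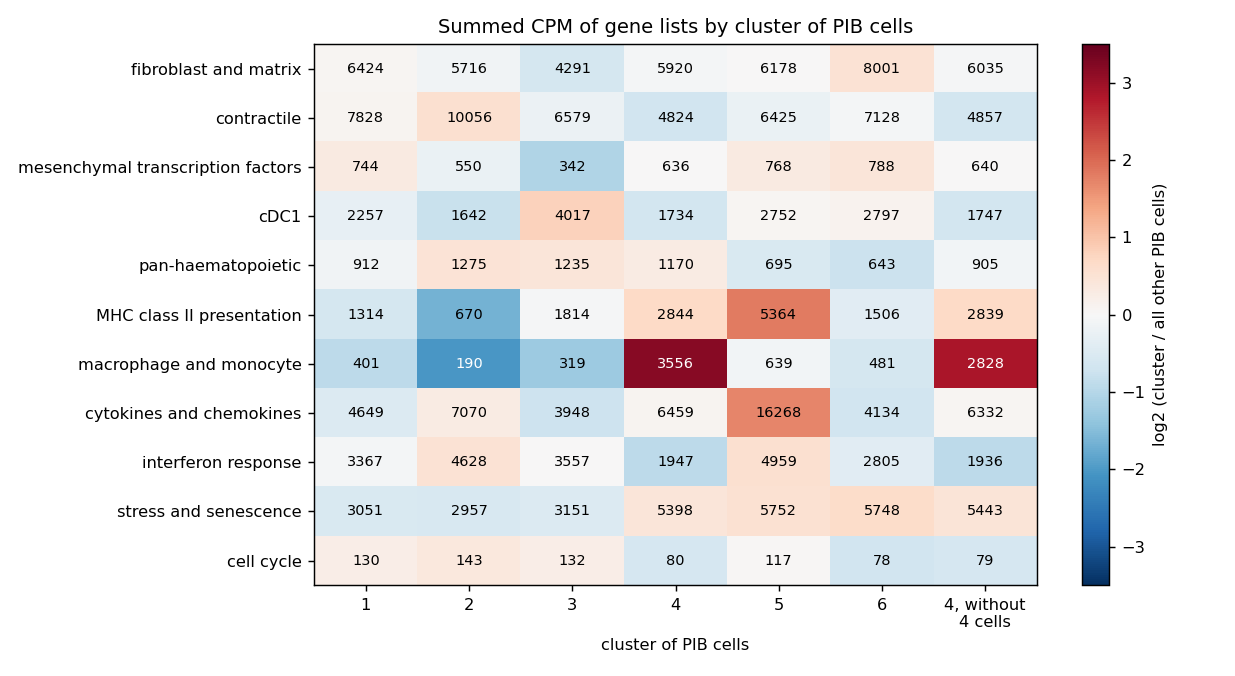
Summed CPM of 11 gene lists (numbers) in the 6 clusters of PIB cells, with cluster 4 also shown without 4 cells low in fibroblast transcripts, coloured by the log2 ratio of the cluster to all other PIB cells. Clusters 1 to 3 are mostly day 3 cells and clusters 4 to 6 mostly day 9 cells; the fibroblast and matrix list stays between 4291 and 8001 CPM in every cluster.

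Most abundant genes differed by less than 2-fold between the days, as far as 1 library a day can show. The PIB libraries still differed far more than the MEF libraries did. The chi-square per degree of freedom was 152.6 over 15338 genes between the PIB days, against 2.35 over 15245 genes between the MEF libraries. Of 3079 genes with at least 50 CPM in either PIB library, 94.3% were within 2-fold, 127 were at least 2-fold higher on day 9 and 50 at least 2-fold lower. Without replicates of a day no test was made, and intervals cover counting error only. Cxcl2, a neutrophil chemokine, stood at 21.5 CPM on day 3 (exact Poisson 95% interval 20.2 to 22.9) and 271 CPM on day 9 (265 to 276), and Lyz2 at 90.9 CPM (88.2 to 93.7) and 734 CPM (726 to 743). Ctla2a, an inhibitor of cathepsins, stood at 78.8 CPM (76.3 to 81.4) on day 3 and 592 CPM (585 to 600.0) on day 9, and Cd36 at 21.3 CPM (20.05 to 22.7) and 150.5 CPM (147 to 154).

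Those 4 genes were at least 7-fold higher on day 9. Lower on day 9 were Spink12, with 154 CPM (151 to 158) on day 3 and 7.25 CPM (6.43 to 8.15) on day 9, and Oasl1, an interferon-induced gene, with 95.1 CPM (92.3 to 97.9) and 14.7 CPM (13.6 to 15.998). Fabp4, a fatty acid carrier, stood at 245 CPM (241 to 250) on day 3 and 49.2 CPM (47.0 to 51.5) on day 9. In library sums the 3 marker genes moved less, with Xcr1, Serpinb1a and Cd74 each within 1.5-fold between the days. The share of cells with a UMI of each was lower on day 9, in cells thinned as for the gene pairs above. Cd74 had a UMI in 554 of 705 PIB cells on day 3 and in 297 of 601 on day 9. Serpinb1a had a UMI in 664 and 471 of these cells, and Xcr1 in 369 and 265. These differences were not tested.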

How the data were processed

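The 10x Chromium 3' UMI counts per gene and cell are the authors' deposited counts, made with Cell Ranger 6.0.1 and Seurat on mm10, per the submitters' processing notes. Filters on cells are not given in the sources used here. The table holds 24455 genes and 25991 cells of 21 libraries, and 0 columns were unused. Members and gene lists were chosen with earlier results of these data known.

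Counts were summed per library and tested with edgeR 4.0.16 (R 4.3.3; TMM scaling, low-count filter, quasi-likelihood F test, Benjamini-Hochberg adjustment over all genes, threshold 0.05). ± is a standard error. DESeq2 1.42.0 was the alternative. The MEF and cDC1 comparisons shared 1 fit of 20 libraries, and the comparison with the other arms used 15 transduced libraries with day as a covariate. Both fits include the libraries labelled CD2, which add to the estimate of spread but are not in the mean of the other arms. PIB days stood in as replicates, and no source says that libraries are separate cultures, so p-values measure only the spread between libraries. The fits were tested on simulated data.

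Cells were clustered with scanpy 1.11.5 (2000 variable genes, 30 components, 15 neighbours, Leiden resolution 0.5). Doublets were marked with Scrublet and kept. Intervals are exact at 95% and cover counting error only, and a count of 0 is read as a floor of 3 counts over the group. Named genes are those of the fixed lists and the genes furthest from the reference among called genes whose libraries do not overlap, with at least 50 CPM in the higher group (20 CPM against other arms). They also include the genes furthest from the reference level among cDC1-high genes and between the days. Others were chosen after their values were seen. Not all genes under the rule are described, and 1 is not reported here. Promoters are from RefSeq, build GRCm38.p6.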

Additional observations from a re-analysis of the deposited data

Results flagged for a closer look

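Ppbp, a platelet chemokine, stood on opposite sides of MEF on the 2 days of PIB. It was 28.8 CPM on day 3 and 0.516 CPM on day 9 in PIB, against 11.002 and 7.002 CPM in MEF. The ratio of day 9 to day 3 was 0.0179. The difference was not tested, since each day is 1 library.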

How the results depend on the processing

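With the library labelled PI8 day 9 in the fit, genes called numbered 1340 against MEF, 4345 against cDC1 and 112 against the other arms. With the libraries of the comparison alone, 6749 were called against MEF. With 1 library left out, the counts ranged from 1306 to 2480 against MEF, from 5658 to 5826 against cDC1 and from 225 to 1071 against the other arms. Against the other arms, DESeq2 called 1939, the fit with no day term 578, PI4 and PIP alone 1677, and PIP and SII alone 2117, or 1802 with cells of at least 10000 UMIs. The PIP and SII settings were added after seeing the data. Cxcl16 changed sign against PI4 and PIP alone, with a log2 difference of -0.0398 (adjusted p = 0.949). The causes were not tested. Of the named genes called, 41 of 85 against MEF, 90 of 104 against cDC1 and 19 of 65 against the other arms were called with any 1 library left out.

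Median shares of UMIs in MEF-high genes in PIB were 14.95% and 17.22% with 4-fold sets and 9.18% and 10.27% with 16-fold sets. Those in cDC1-high genes were 6.4% and 5.96%, and 3.00% and 2.03%, and without Tmsb4x, Cst3 and Gm42418 they were 0.98% and 0.99%. The share of PIB cells with both kinds of transcript was 98.2% and 90.5% at 1 UMI, 60.6% and 30.7% at 5 UMIs, 64.5% and 33.4% when thinned to 3000 UMIs, 97.3% and 84.7% when thinned to 10000, and 24.5% and 17.3% without Lsp1 and Arhgdib. Clusters numbered 3 at resolution 0.3, 10 at resolution 1.0 and 3 for day 3 alone. No paired analysis was possible because the replicate numbers of the transduced arms are days, which enter as a covariate where arms are compared, and MEF and cDC1 have none. Each day of PIB and cDC1 is 1 library, which limits every comparison here.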
